A study of Mus musculus with 4 samples.

Results

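The type I interferon response genes described here are the genes that cells switch on when interferon alpha or beta binds its receptor. They were taken by gene symbol from a list of 39, without use of their levels. Of the 39, 37 had a row among the 32227 genes of the count matrices, and Mx1 and Mx2 are not analysed here. Single cells were profiled with PIPseq, a droplet method that tags each captured RNA molecule with a unique molecular identifier (UMI), after magnetic selection of CD11b+ cells, mostly microglia, from the cortex of wild-type mice at postnatal day 15. Adeno-associated virus had been injected into the cortex at postnatal day 0 or 1, carrying either membrane-anchored mCherry (mCherry-CAAX, the control) or Hevin, the secreted protein encoded by Sparcl1. Both groups therefore carried a virus, the same injection and the same astrocyte promoter, GfaABC1D, so that the selected cells were not the cells meant to carry the transgene. Each group had 2 libraries, and inhibitors of transcription and translation were present while the tissue was taken apart. The labels do not say whether the 2 libraries of a group came from separate animals. The p-values below measure the spread between these libraries, which may be technical in part. Sex-linked transcripts, given below, differed between the 2 libraries of each group, so these did not hold the same mix of animals.

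Interferons alpha and beta signal through the receptor chains IFNAR1 and IFNAR2 and their kinases to a complex that holds STAT2 and IRF9 and binds a DNA element, the interferon-stimulated response element (ISRE), in front of the responding genes. The products restrict viruses in several ways: they hold budding particles at the membrane (tetherin, encoded by Bst2), bind foreign RNA (the IFIT proteins), activate RNA decay (the oligoadenylate synthetases) or sense nucleic acid (the PYHIN proteins, RIG-I and MDA5). Microglia, the resident macrophages of the brain, and the macrophages of its borders both express many of these genes at rest, and subsets of microglia with a high interferon signature are known in development, ageing and disease.

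Because the ISRE is the element these genes are known for, the 250 bases before the start site of 7 of them are printed first, chosen to cover the most abundant gene (Bst2), 2 PYHIN genes (Mndal and Ifi207), 3 genes of the classic strong response (Ifit3, Isg15 and Cxcl10) and 1 gene that did not pass the test of the 2 groups (Irf1). Sequences are from the RefSeq promoter table of GRCm38.p6, which matched 29 of the 37 genes, and run 5′ to 3′ on the strand of the gene. Capitals mark matches, or runs of overlapping matches, to the ISRE core GAAANNGAAA on either strand or, in Bst2 and Irf1, to the core TTCNNNGAA of the GAS element, a second element of interferon signalling. Mndal and Irf1 had 2 start sites each in the table. The printed start was chosen by its number of matches, to the ISRE core in Mndal and to the GAS core in Irf1.
Bst2, chr8:71537473-71537722, minus strand: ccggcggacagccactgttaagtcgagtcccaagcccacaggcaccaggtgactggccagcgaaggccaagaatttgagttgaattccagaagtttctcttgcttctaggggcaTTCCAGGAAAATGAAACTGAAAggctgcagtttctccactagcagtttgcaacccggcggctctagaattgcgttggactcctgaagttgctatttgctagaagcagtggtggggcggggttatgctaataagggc
Mndal, chr1:173880188-173880437, minus strand: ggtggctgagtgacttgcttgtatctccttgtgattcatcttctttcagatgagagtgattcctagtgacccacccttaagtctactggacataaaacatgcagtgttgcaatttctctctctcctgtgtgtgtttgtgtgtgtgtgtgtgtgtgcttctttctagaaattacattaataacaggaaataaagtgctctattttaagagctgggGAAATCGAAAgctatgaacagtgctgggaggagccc
Ifi207, chr1:173741810-173742059, minus strand: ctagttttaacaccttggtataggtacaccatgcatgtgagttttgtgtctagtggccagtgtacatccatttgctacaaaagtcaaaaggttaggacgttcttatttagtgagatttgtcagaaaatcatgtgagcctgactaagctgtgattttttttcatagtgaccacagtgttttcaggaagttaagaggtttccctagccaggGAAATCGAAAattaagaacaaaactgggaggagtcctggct
Ifit3, chr19:34583279-34583528, plus strand: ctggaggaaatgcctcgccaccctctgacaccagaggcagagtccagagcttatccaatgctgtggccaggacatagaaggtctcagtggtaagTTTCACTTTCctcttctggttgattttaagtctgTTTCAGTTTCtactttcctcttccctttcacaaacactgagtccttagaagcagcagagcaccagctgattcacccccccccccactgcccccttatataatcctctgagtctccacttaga
Isg15, chr4:156200819-156201068, minus strand: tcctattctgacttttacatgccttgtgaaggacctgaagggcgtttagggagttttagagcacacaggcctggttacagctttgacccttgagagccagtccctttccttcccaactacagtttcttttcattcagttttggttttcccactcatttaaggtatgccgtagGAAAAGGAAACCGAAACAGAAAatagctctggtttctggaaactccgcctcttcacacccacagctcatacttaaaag
Cxcl10, chr5:92348890-92349139, minus strand: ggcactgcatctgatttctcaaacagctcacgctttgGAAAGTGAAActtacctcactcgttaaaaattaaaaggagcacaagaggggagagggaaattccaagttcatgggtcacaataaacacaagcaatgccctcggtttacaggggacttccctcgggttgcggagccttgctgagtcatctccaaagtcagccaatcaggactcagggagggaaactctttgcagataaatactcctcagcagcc
Irf1, chr11:53769764-53770013, plus strand: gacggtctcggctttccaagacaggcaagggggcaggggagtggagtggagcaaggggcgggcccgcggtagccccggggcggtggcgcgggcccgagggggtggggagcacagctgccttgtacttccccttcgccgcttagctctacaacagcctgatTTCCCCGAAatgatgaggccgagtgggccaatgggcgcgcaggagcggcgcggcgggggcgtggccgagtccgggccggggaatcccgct

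Over the 300 bases of each table entry (250 before and 50 after the start), 18 of the 29 matched genes (62.1%) held the ISRE core at 1 start site or more, against 3.99% of all 27025 genes in the table. The ISRE core was held by 15 of the 23 matched genes that passed the test of the 2 groups over all cells (65.2%). Of the 6 matched genes that did not pass, 3 held it (50%). The genes printed above were picked and do not show this split. The GAS core was held by 8 of 29 (27.6%), against 9.55% of all genes. In the window printed above, Bst2 had 2 ISRE cores that overlapped, 121 and 115 bases before the start, and a GAS core at 128 that ran into the first of them. Mndal and Ifi207 held the same letters, GAAATCGAAA, at 27 and 32 bases before their starts. Isg15 had 3 overlapping cores at 69, 63 and 57 bases, Ifit3 had 2 separate ones at 147 and 113, and Cxcl10 had 1 at 204. No ISRE core was found in this window of Irf1, which had a GAS core at 82 bases. These are matches of letters and not measured binding sites.

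The 4 libraries held 10877 to 19855 barcodes and 49781430 to 67832685 UMIs each, and 10849 to 19653 cells per library passed the filters. Median depth was lowest in Hevin replicate 1 (2329 UMIs per cell, against 3350 to 4037 in the others), and for comparisons of single cells every cell was therefore thinned to 1500 UMIs. Levels are given as CPM, the UMI count of a gene scaled to a common total of the UMIs of the same cells. Sparcl1 was at 123 and 91.4 CPM in the mCherry libraries, against 86.4 and 78.4 in the Hevin libraries, and as the selected cells are not astrocytes this level does not check the labels. Uty, a gene of the Y chromosome, was at 22.9 and 0.846 CPM in mCherry replicates 1 and 2, and at 42.8 and 1.08 in Hevin replicates 1 and 2. Hevin replicate 1 also stood apart in Xist, the transcript of the inactive X chromosome (1.19 CPM, against 539 to 1210 in the others). Without it, 31 of the 37 genes still passed the test over all cells. A list of 15 genes of the dissociation response was at 391 to 431 CPM in the 4 libraries, with overlapping groups. Of these 15, 2 were higher in Hevin by the edgeR test described below, against 6.85% of all genes tested. A list of 8 NF-kB feedback genes was at 353 and 363 CPM under mCherry and at 614 and 567 under Hevin. By the same test 5 of the 8 were higher, and the part of this list in the results below was not tested. Any pair of libraries shared 1 to 7 cell barcodes.

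Summed over all kept cells, the interferon response genes stood at 1145 and 1144 CPM in mCherry replicates 1 and 2, and at 2731 and 2438 in Hevin replicates 1 and 2. Individually, 31 of the 37 were higher in Hevin by edgeR's quasi-likelihood test (Benjamini-Hochberg adjusted p under 0.05 over the 19119 genes tested) and none was lower. Among all genes tested, 6.85% were higher. The median log2 fold change was 0.83 over the 37 genes and 0.00 over all genes tested. In 35 of the 37, both Hevin libraries lay above both mCherry libraries, which 17.0% of all genes tested did, and the exceptions were Irf1 and Trim30a. These sums mix cell types: a change in which cells were present and a change in RNA per cell cannot be told apart in them, and the cell classes are taken up below. Fold changes are given as log2 ± standard error, with 2 libraries in each group, and p-values are adjusted as above.

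**Figure D1:**
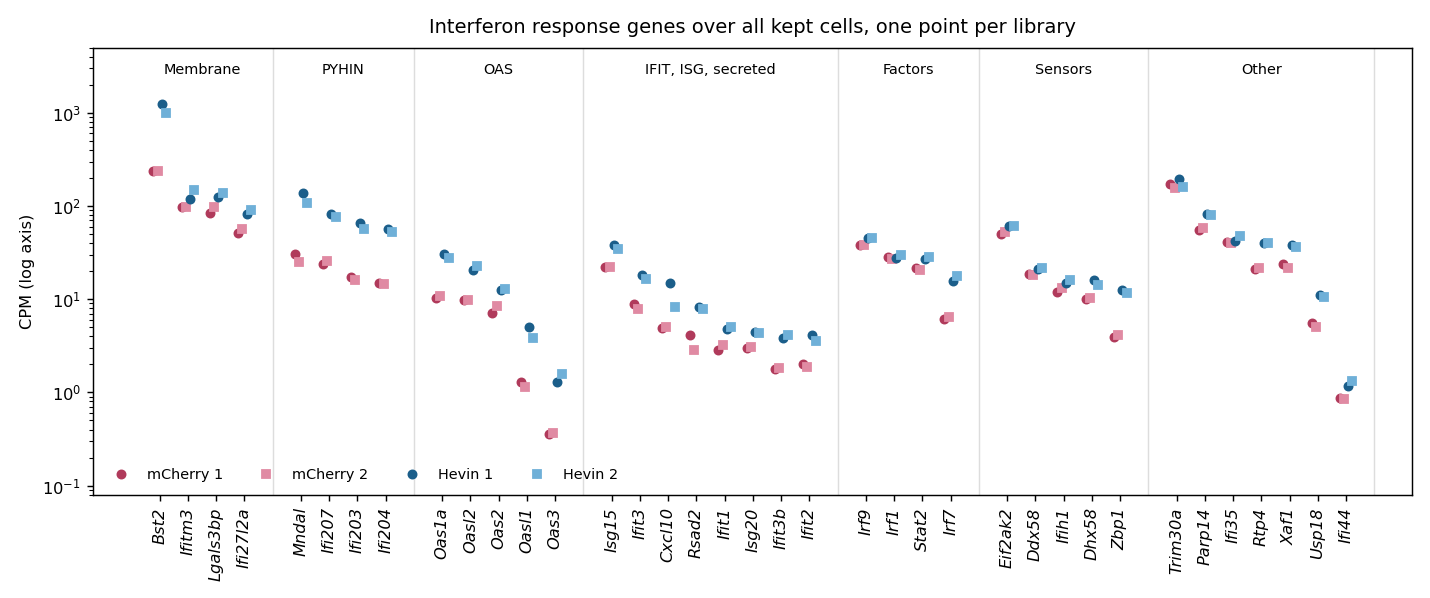
Level of each of the 37 interferon response genes over all kept cells, in CPM on a log axis, with 1 point per library and the genes grouped by role. The Hevin points (blue) lie above both mCherry points (red) in 35 genes, and the gap is widest in Bst2, in the 4 PYHIN genes and in Oas3 and Oasl1.

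The membrane group had the highest summed level of the groups, 471 and 491 CPM in mCherry and 1570 and 1369 in Hevin. Bst2 encodes tetherin, which holds budding virus at the cell surface and is also a marker antigen of plasmacytoid dendritic cells. Other markers of those cells (Ccr9, Ly6d, Spib and 3 more) summed to 73.6 and 77.5 CPM in mCherry and to 33.2 and 38.2 in Hevin. By the gates defined below, these markers were at 62.5 to 90.6 CPM in the microglia gate and at 13.3 to 34.3 in the monocyte and dendritic cell gate. Their sum is therefore no count of plasmacytoid dendritic cells here. The level of Bst2 was 238 and 240 CPM in the mCherry libraries, against 1245 and 993 in the Hevin libraries, the largest fold change of the 37 genes at 2.35 ± 0.13 (adjusted p = 0.000182). Both Hevin libraries were far above both controls, and Bst2 by itself made up 881 of the 1444 CPM by which the summed level differed. Ifitm3, which blocks the entry of viruses at endosomes, was at 97.6 and 98.6 in mCherry and at 118 and 147 in Hevin (0.55 ± 0.10, adjusted p = 0.0187). Lgals3bp, a secreted galectin-binding glycoprotein, was at 84.4 and 96.5 against 126 and 139 (0.67 ± 0.09). Ifi27l2a, a small hydrophobic membrane protein, was at 51.2 and 56.3 against 81.5 and 90.2 (0.79 ± 0.08). All 4 genes of the group passed the test, with a fold change of 5.08 in Bst2 and of 1.46 to 1.73 in the other 3.

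All 4 PYHIN genes rose, with a median log2 fold change of 2.00. They encode nucleic acid binding proteins of the interferon-inducible p200 family, whose genes lie side by side on chromosome 1 (Ifi207 starts at 173723427 and Ifi203 ends at 173942672 in GRCm38). Mndal was at 30.5 and 25 CPM in mCherry and at 139 and 108 in Hevin (2.27 ± 0.15, adjusted p = 0.000348). Ifi204, the mouse relative of the DNA sensor IFI16, was at 14.8 and 14.7 against 56.7 and 53.1 (2.01 ± 0.08, adjusted p = 4.2e-05). Ifi203 was at 17.4 and 16.2 against 66.4 and 57.3 (2.00 ± 0.10, adjusted p = 9.6e-05). Ifi207 was at 23.6 and 25.7 against 81.5 and 76.2 (1.80 ± 0.08, adjusted p = 8.1e-05). The 4 rose 3.47-fold to 4.84-fold, and in each the 2 Hevin libraries were well clear of the controls. The Hevin libraries differed most from each other in Mndal (SD 21.9 CPM, against 2.55 to 6.43 in the other 3). Mndal and Ifi203 overlap on the same strand, and 18.7% of the 50-base words in the last 500 bases of Mndal transcripts also occur in neighbouring family members, so reads could be split between them.

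All 5 oligoadenylate synthetase genes passed the test, from 28.9 and 30.5 CPM summed over the mCherry libraries to 70.2 and 68.8 in the Hevin libraries. Oas3 was the largest in fold but sparse, at 0.355 and 0.363 against 1.30 and 1.58 CPM (2.12 ± 0.27, adjusted p = 0.00457), which is 24 and 18 UMIs against 72 and 83. Oasl1, Oas1a, Oasl2 and Oas2 rose by 1.96, 1.61, 1.26 and 0.81 on the log2 scale. Of the 50-base words at the end of Oas1a, 56.1% are shared with its near copy Oas1g, so its level is uncertain.

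The 8 genes of the IFIT and ISG group also all passed the test, but from a low level: their sum was 49.8 and 47.6 CPM in mCherry and 97.0 and 83.9 in Hevin. Isg15, a ubiquitin-like protein that is both conjugated to targets and secreted, was at 22.2 and 22.0 in mCherry and at 38.1 and 34.3 in Hevin (0.83 ± 0.09, adjusted p = 0.00205). The other 7 genes (Ifit1, Ifit2, Ifit3, Ifit3b, Isg20, Rsad2 and Cxcl10) had log2 fold changes of 0.65 to 1.35. Isg20, an exonuclease, lost its call when any 1 of the 4 libraries was left out, and Ifit1 lost it without mCherry replicate 1. In Cxcl10, a chemokine that draws in T cells, the 2 Hevin libraries differed from each other more than in the other 7, at 15.0 and 8.18 against 4.90 and 5.00.

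The median log2 fold change was lowest in the transcription factors (0.46) and the nucleic acid sensors (0.41), of which 3 of 4 and 3 of 5 passed the test. Of the transcription factors, Irf7, the factor that amplifies interferon production and is itself induced by it, rose by 1.55 ± 0.11, and Stat2 by 0.53 ± 0.08. Irf9, the DNA-binding part of the STAT complex, was at 37.7 and 38.1 against 45.6 and 45.5 (0.38 ± 0.06, adjusted p = 0.0111). Irf1, which responds more to interferon gamma and NF-kB, was at 28.1 and 27.2 in mCherry and at 27.6 and 29.6 in Hevin (0.17 ± 0.08, adjusted p = 0.247), and the groups overlapped. Among the sensors of foreign RNA and DNA, Zbp1 rose by 1.69 ± 0.13 and Dhx58 by 0.70 ± 0.11. Eif2ak2, the RNA-activated kinase PKR, was at 50.2 and 52.6 against 60.6 and 61.7 (0.37 ± 0.06, adjusted p = 0.0149, and not called without mCherry replicate 1). Ddx58, which encodes RIG-I, was at 18.5 and 18.1 against 21.0 and 21.5 (0.33 ± 0.08, adjusted p = 0.0503). It missed the threshold, as did Ifih1, which encodes MDA5 (0.41 ± 0.11, adjusted p = 0.0534).

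Of the remaining 7 effectors, 4 passed the test. Parp14, an ADP-ribosyltransferase, was at 54.9 and 57.4 against 81.9 and 80.4 (0.65 ± 0.07). Rtp4, a Golgi chaperone, was at 21.1 and 21.5 against 39.8 and 39.6 (1.02 ± 0.07). It lies across Masp1 on the opposite strand, and the sources used here do not say whether the counting used strand. Xaf1, a pro-apoptotic zinc-finger protein, was at 23.9 and 21.8 against 37.7 and 36.2 (0.81 ± 0.08), and Usp18, which removes ISG15 and dampens the receptor, rose by 1.14 ± 0.12. Trim30a, a negative regulator of NF-kB signalling, was at 173 and 156 against 196 and 159 and did not pass (0.23 ± 0.12, adjusted p = 0.307). Its groups overlapped. Ifi35 was at 41.1 and 40.3 against 42.1 and 47.9 (0.26 ± 0.08, adjusted p = 0.0790), and Ifi44 also missed the threshold (0.64 ± 0.24, adjusted p = 0.153).

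To see which cells held these transcripts, cells were sorted by marker genes that are not among the 39. A cell fell in the microglia gate with at least 100 UMIs of 9 microglial genes (P2ry12, Tmem119, Sall1 and 6 others) per 10000 UMIs and under 150 of Apoe, in the Apoe-high gate with microglial genes under 100 and Apoe at 150 or more, and in the border-macrophage gate with at least 100 of 6 genes such as Lyve1, Cd163 and Mrc1. Other lineages were gated at 40, and the bounds were set after the distributions had been seen. The microglia gate held 84.0% and 84.3% of kept cells in the mCherry libraries, against 29.5% and 41.6% in the Hevin libraries. The Apoe-high gate held 0.488% and 0.406% (87 and 44 cells) in the mCherry libraries, and 50.6% and 42.0% (9945 and 5481 cells) in the Hevin libraries. Cells within 20% of a bound were 8.34% to 12.2% of each library at the microglial bound and 3.57% to 5.53% at the Apoe bound.

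Further markers that did not enter the gates bore on their names. A second list of microglial genes (Cx3cr1, Fcrls, Trem2 and others) summed to 19000 to 22859 CPM in the microglia gate, to 7623 to 10266 in the Apoe-high gate and to 5620 to 7912 in the border-macrophage gate. A second list of border-macrophage genes summed to 7156 to 7865 in the border-macrophage gate, to 1525 to 2685 in the Apoe-high gate and to 443 to 571 in the microglia gate. The Apoe-high cells were below the microglia gate on the first list, where their range overlapped that of the border-macrophage gate, and between the other two gates on the second. They are called here by their gate and given no cell type name.

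The summed level was set side by side for each gate. In the microglia gate the 37 genes summed to 856 and 837 CPM in the mCherry libraries, against 1150 and 1037 in the Hevin libraries. In the Apoe-high gate they summed to 3792 and 3442 in mCherry and to 3639 and 3600 in Hevin, so that the 2 groups overlapped, at a level above that of the microglia gate in every library. Border macrophages were at 3220 and 3238 against 3633 and 3672, above the Apoe-high gate in Hevin replicate 2 and below it in the other 3 libraries. Endothelial cells were at 1434 and 1448 against 1818 and 1951, and the astrocyte gate was lowest, at 524 and 489 against 881 and 711 with 26 to 93 cells per library. In the monocyte and dendritic cell gate the values were 2013 and 1443 against 2054 and 2394, with overlapping groups. The overlapping sums of the Apoe-high gate held opposite changes. Bst2 was at 1072 and 1114 CPM there in mCherry and at 1901 and 1821 in Hevin. Both Hevin libraries were below both mCherry libraries in 23 of the 37 genes (24.8% of all genes tested were) and above them in 4 (23.6% were).

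**Figure D2:**
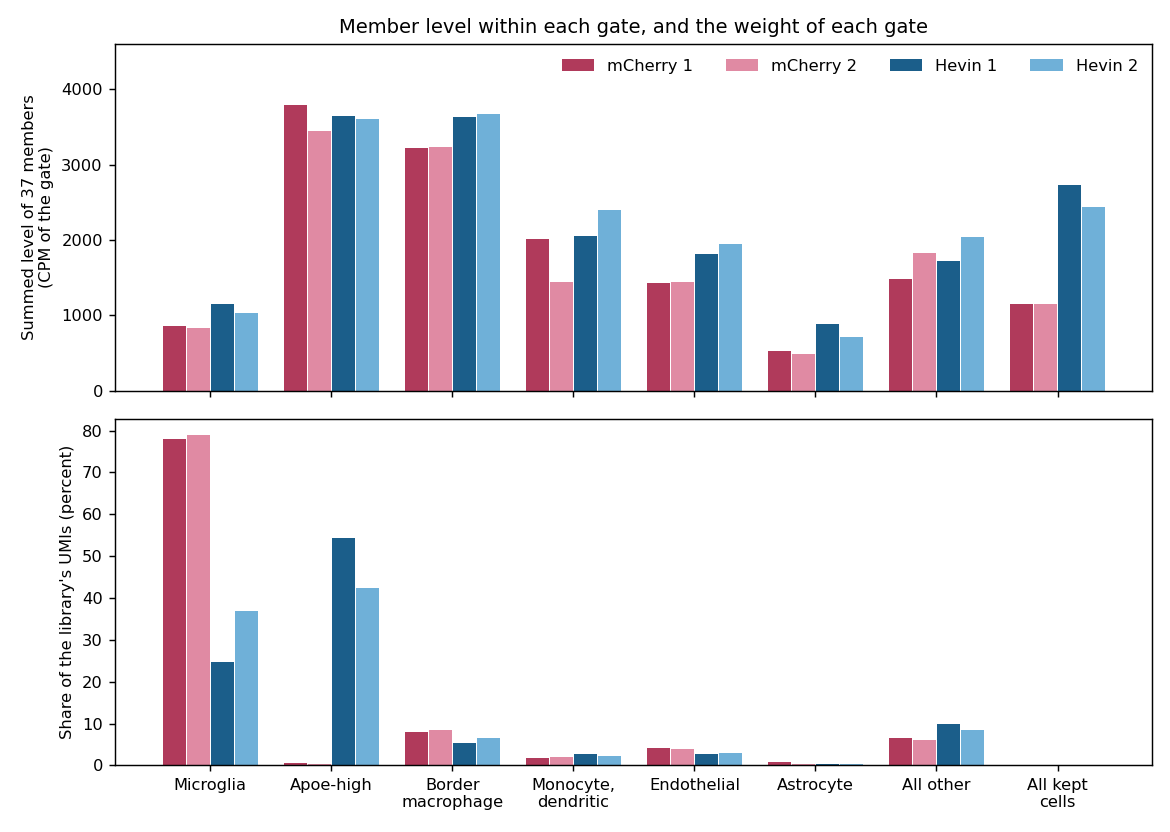
Upper bars give the summed level of the 37 genes within each gate, in CPM of that gate, for each of the 4 libraries, and lower bars give the percent of each library's UMIs that came from the gate (the last column, all kept cells, is the whole and has no lower bar). The Apoe-high bars span 3442 to 3792 in the 4 libraries while the weight of that gate goes from under 1% to 54.3% and 42.4%. In that gate Bst2 was higher in both Hevin libraries, and 23 of the 37 genes were lower in both (24.8% of all genes tested were), so similar bars do not mean unchanged genes.

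Within the Hevin libraries, 36 of 37 genes were higher in the Apoe-high gate than in the microglia gate of the same libraries (edgeR, library as a block), against 17.9% of all 15276 genes tested, with a median log2 difference of 1.51 over the 37 genes. The 4 largest log2 differences were in Ifi203 (3.49 ± 0.15), Mndal (3.44 ± 0.13), the sparse Oas3 (3.31 ± 0.47) and Ifi207 (3.24 ± 0.12), and that of Ifi204, the other PYHIN gene, was 2.85 ± 0.08. Bst2 stood at 349 and 273 CPM in the microglia gate and at 1901 and 1821 in the Apoe-high gate of the 2 Hevin libraries (2.63 ± 0.07, adjusted p = 1.8e-16). Cxcl10 differed by 2.82 ± 0.26 and Isg15 by 1.49 ± 0.09. At the other end Irf1 (0.20 ± 0.08, adjusted p = 0.0530) did not pass, and Eif2ak2 (0.29 ± 0.06) and Trim30a (0.30 ± 0.06) differed little.

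The few Apoe-high cells of the mCherry libraries had the same direction. There, 29 of 37 genes were higher than in the microglia gate (5.37% of all genes tested), with a median log2 difference of 2.88, and 16 of 37 without mCherry replicate 1. Bst2 was at 185 and 181 CPM in the microglia gate and at 1072 and 1114 in the Apoe-high gate (2.51 ± 0.08). Mndal was at 5.80 and 3.17 against 186 and 169 (5.20 ± 0.37). The Apoe-high level of Mndal in the Hevin libraries was 197 and 186, overlapping that of the controls.

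Against border macrophages, the Apoe-high cells of the Hevin libraries had a mixed profile. Of 37 genes, 4 were higher (18.2% of all genes tested were) and 15 were lower (20.4% were), with a median log2 difference of -0.15. Bst2 (1.32 ± 0.06), Cxcl10 (3.69 ± 0.46), Xaf1 (0.50 ± 0.12) and Irf1 (0.31 ± 0.12) were higher, though Irf1 lost its call without either Hevin library and Xaf1 without replicate 1. Oas2 (-2.27 ± 0.12), Ifi27l2a (-1.61 ± 0.08), Ifitm3 (-1.48 ± 0.09) and Ifit1 (-1.28 ± 0.24) were the furthest below, and the count of lower genes was 9 without Hevin replicate 2. Scaled to total counts alone, 3 were higher and 19 lower, as that scaling moved the median of all genes by -0.20.

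How much of the difference between the groups went with these gate shares was computed by giving both groups the same gate weights in turn and averaging the 2 orders. The summed level was 1145 CPM in mCherry and 2589 in Hevin, as means of the 2 libraries. Of the difference of 1444, 1233 (85.4%) went with the shares of UMIs in each gate and 211 (14.6%) with levels inside the gates. Over the 4 pairs of 1 Hevin and 1 mCherry library the part that went with gate shares was 81.8% to 89.1%. The Hevin gate levels weighted by the mCherry gate shares gave 1417, and the mCherry gate levels weighted by the Hevin shares gave 2439. By gate, the larger share of Apoe-high cells added 1731, the smaller share of microglia took away 463, and the level inside the microglia gate added 135. These figures depend on the gate bounds, which leave mixed levels inside each gate.

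**Figure D3:**
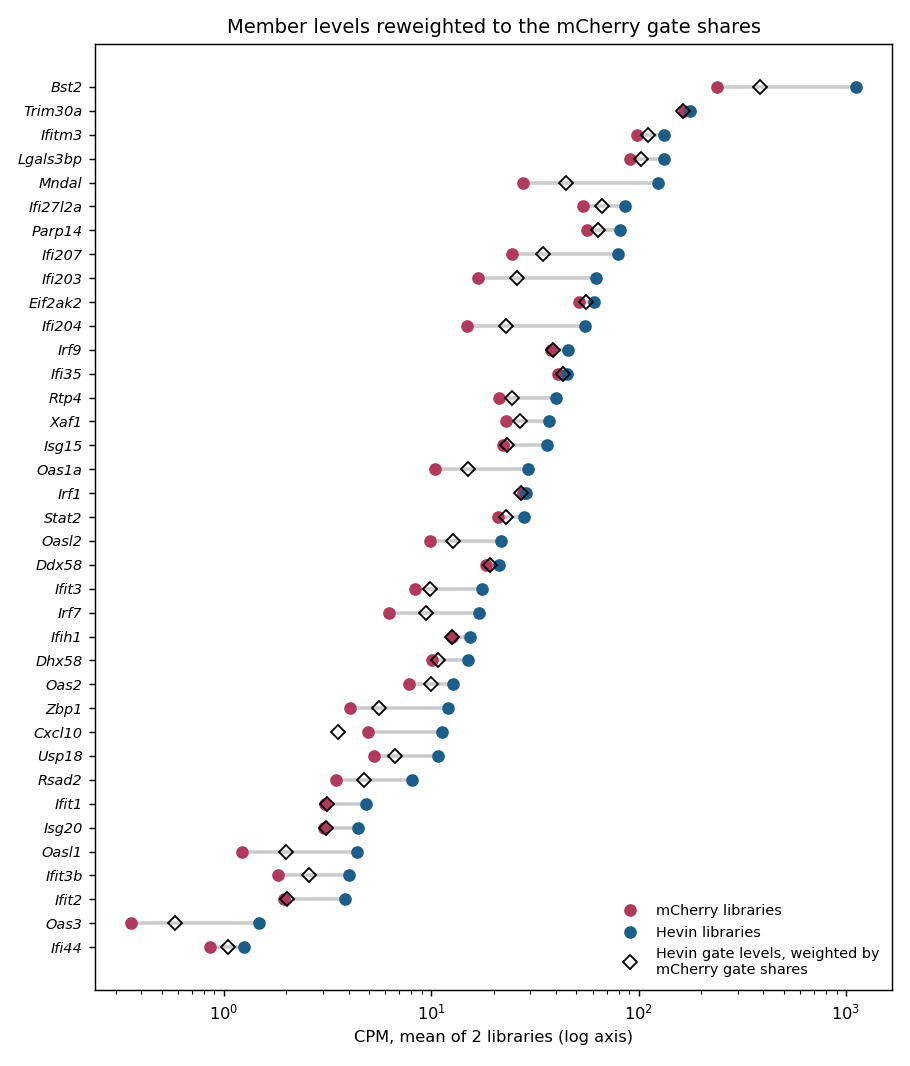
Level of each gene in CPM (log axis, mean of 2 libraries) in mCherry (red) and Hevin (blue), and the Hevin gate levels weighted by the mCherry gate shares (open diamonds). The diamond of Bst2 lies at 383, between 239 in mCherry and 1120 in Hevin, and that of Mndal at 44.5, between 27.8 and 124.

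Gene by gene, more than 50% of the difference went with gate shares in 34 of 37 genes and more than 90% in 29, with a median of 124%, since many genes were lower inside the Apoe-high gate of the Hevin libraries. The exceptions were Eif2ak2 (27.1%), Ifih1 (27.5%) and Oas3 (37.2%), which all differed by under 10 CPM. Bst2 had the largest part inside gates in absolute terms: of its 881 CPM, 582 (66.1%) went with gate shares and 299 (33.9%) with levels inside gates. For Mndal the part that went with gate shares was 82.7% and for Ifi204 89.5%. For the 10 genes of the strong-response set defined below, the part that went with gate shares was 95.9 CPM as the mean of the 2 orders. The measured difference was 49.2, from 53 in mCherry to 102 in Hevin. Their mCherry gate levels at the Hevin shares gave 202, and their Hevin gate levels at the mCherry shares gave 58.9. The mCherry levels of the Apoe-high gate behind all these figures came from 87 and 44 cells, with 3 and 2 UMIs of Ifih1 and 0 of Oas3.

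Inside the microglia gate, none of 36 genes tested passed in either direction by edgeR's main test, and none of all 16926 genes did (0%). At an unadjusted p under 0.05, 21 of the 36 were higher, against 3.44% of all genes tested, and DESeq2 called 6. The median log2 fold change was 0.48, and 34 of the 36 were above 0. With a stricter bound on the microglial genes, the median was 0.24, against -0.01 over all genes tested. There, 20 of 28 genes tested were above 0 and none passed. Both Hevin libraries were above both mCherry libraries in 26 of the 36, against 11.1% of all genes tested. The main test called 7 without mCherry replicate 1, 5 without Hevin replicate 2, 2 without mCherry replicate 2 and none without Hevin replicate 1, so the number of calls depended on single libraries. Bst2 was at 185 and 181 against 349 and 273 (0.81 ± 0.12, adjusted p = 0.170). Ifi204 was at 4.06 and 4.39 against 12.8 and 11.1 (1.54 ± 0.15, adjusted p = 0.0853), and Mndal at 5.80 and 3.17 against 24.7 and 12.9 (2.09 ± 0.38, adjusted p = 0.253). The groups did not overlap in these 3 genes, and Hevin replicate 1 was the higher of the 2 Hevin libraries in each. Isg15 was at 13.4 and 13.6 against 15.9 and 16, Irf9 at 35.5 and 35.8 against 37.2 and 36.2, and Cxcl10 was below the controls, at 3.27 and 3.98 against 3.08 and 2.01.

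Genes that mark the Apoe-high cells were also higher in the microglia gate of the Hevin libraries. A list of 9 such genes that are in no gate (Axl, Gpr65, Runx3, Apoc1 and others) summed there to 109 and 99.6 CPM in mCherry and to 322 and 230 in Hevin, and in the Apoe-high gate to 1320 and 1666 in mCherry and to 2398 and 2621 in Hevin. The increase in the microglia gate was 6.85% of the Hevin Apoe-high level for that list, 7.18% for Apoe and 6.84% for the 37 interferon response genes. Gene by gene it ran from -6.02% for Cxcl10 to 23.5% for the sparse Ifi44. It was 6.86% for Bst2, 7.48% for Mndal and 5.59% for Isg15, but 16.7% for Ifi27l2a, 13.8% for Irf7 and 12.3% for Ifitm3, and -4.13% for Irf1 and -1.97% for Trim30a. In the endothelial gate the increase was 5.88% for the marker list and 12.2% for the 37 genes, and in the astrocyte gate it was 11.8% and 7.99%. In the border-macrophage gate it was 13.4% and 11.7%, and in the monocyte and dendritic cell gate 16.6% and 13.7%. For Apoe it was 6.26% in the endothelial, 13.8% in the astrocyte, 4.19% in the border-macrophage and 10.8% in the monocyte and dendritic cell gate. For Ms4a7, which set no gate, it was 6.05% in the microglia gate and 5.53%, 9.5%, 1.13% and 10.6% in those gates. The microglia gate has an upper bound on Apoe, which limits the increase of Apoe there. Whether RNA from Apoe-high cells contributed to the levels measured in the other gates was not tested.

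Inside the Apoe-high gate, Bst2 was the 1 gene of 37 that passed as higher in Hevin (1.35% of all genes tested did), at 1072 and 1114 against 1901 and 1821 CPM (0.95 ± 0.12, adjusted p = 3.7e-05), a call kept without any 1 library. As lower, 4 genes passed (1.25% of all genes tested did). Ifitm3 was at 306 and 242 against 97.5 and 119 (-1.19 ± 0.16), Ifi27l2a at 197 and 155 against 73.5 and 85.5 (-1.01 ± 0.17), and Cxcl10 at 192 and 45.7 against 23.7 and 12.3 (-2.70 ± 0.41). Ifit3b, the fourth, was at 23.9 and 18.3 against 5.10 and 5.34 (-1.88 ± 0.50). The mCherry side of these values came from 87 and 44 cells, and the 72 and 10 UMIs of Cxcl10 in them were few. Without mCherry replicate 1 none of the 4 passed, and without mCherry replicate 2 only Ifitm3 did. Both Hevin libraries lay below both mCherry libraries in 23 of the 37 genes (24.8% of all genes tested did) and above them in 4 (23.6% did). The median log2 fold change of the 37 genes in this gate was -0.39, against 0.11 over all genes tested. Isg15 was at 90.5 and 54.8 against 47.2 and 40.5, and Mndal at 186 and 169 against 197 and 186. Oas3 had 0 UMIs in the gate of both mCherry libraries and 51 and 55 in Hevin. The cells of this gate also differed between the groups in markers that set no gate. The second list of border-macrophage genes summed to 2685 and 2433 CPM in mCherry and to 1525 and 1544 in Hevin. The list of 9 genes that mark Apoe-high cells summed to 1320 and 1666 against 2398 and 2621. Whether the differences in this gate arose within 1 kind of cell was not tested.

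In border macrophages, none of 35 genes tested passed (0.124% of all genes tested were called higher, and DESeq2 called none of the 35), and 6 were higher at an unadjusted p under 0.05, against 3.67% of all genes tested. Both Hevin libraries lay above both mCherry libraries in 15 of the 35, against 12.9% of all genes tested. Bst2 was at 681 and 691 against 945 and 771 CPM (0.37 ± 0.11, adjusted p = 0.341), Ifi203 at 139 and 137 against 176 and 178 (0.40 ± 0.08, adjusted p = 0.111), and Isg15 at 48.1 and 50.4 against 43.1 and 45.4. The main test called 3 without Hevin replicate 1, 2 without Hevin replicate 2 and none without either mCherry library. In endothelial cells Bst2 was the 1 gene of 28 tested that passed (0.76 ± 0.14, adjusted p = 0.0267, against 0.225% of all genes tested), a call lost without either mCherry library. The count there was 4 without Hevin replicate 1 and 3 without Hevin replicate 2.

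A rise of the sum can come from a few cells with a strong response or from a small rise in many. Cells with a strong response were counted with a set of 10 genes (Ifit1, Ifit2, Ifit3, Ifit3b, Isg15, Rsad2, Cxcl10, Oasl1, Usp18 and Ifi44): a cell counted as high-responding with at least 3 of their UMIs after thinning to 1500. There were 70 such cells of 17833 in mCherry replicate 1 (0.393%, exact 95% binomial interval 0.306% to 0.496%) and 51 of 10849 in replicate 2 (0.470%, 0.350% to 0.618%). In the Hevin libraries there were 140 of 15293 (0.915%, 0.771% to 1.08%) and 130 of 13036 (0.997%, 0.834% to 1.18%). The 4360 cells of Hevin replicate 1 under 1500 UMIs were left out, and none were in the other libraries. Without thinning the shares were 1.39%, 1.67%, 2.03% and 3.18%. The groups did not overlap, with 0.431% ± 0.0548 in mCherry and 0.956% ± 0.0578 in Hevin (SD, n = 2), and the exact two-sided permutation p of 0.333 is the smallest that 2 against 2 libraries can give. Intervals cover counting error only.

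The high-responding cells were in different gates in the 2 groups. In mCherry replicates 1 and 2, 41.4% and 51.0% of them were in the microglia gate and 27.1% and 29.4% in the border-macrophage gate. In Hevin replicates 1 and 2, 81.4% and 61.5% were in the Apoe-high gate, and 5.00% and 13.1% in the microglia gate. Within the microglia gate their share was 0.194% and 0.284% in mCherry and 0.158% and 0.314% in Hevin (29, 26, 7 and 17 cells), and the groups overlapped. Within the Apoe-high gate it was 1.41% and 1.46% in Hevin (114 and 80 cells), and the 2 cells in each mCherry library gave 2.30% and 4.55%, with intervals of 0.280% to 8.06% and 0.555% to 15.5%.

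The counts per cell over all cells include the change in gate shares. After thinning, the 37 genes gave a mean of 1.62 and 1.63 UMIs per cell in mCherry and 4.06 and 3.60 in Hevin, with medians of 1 and 1 against 3 and 3. Cells with none of these UMIs made up 29.7% and 31.1% in mCherry and 9.41% and 14.4% in Hevin. In the astrocyte gate as a comparison outside the CD11b+ lineage, cells with none were 52.7% and 28.6% in mCherry and 21.8% and 50% in Hevin, after the same thinning from median depths of 4881, 5253, 2291 and 7031 UMIs. Cells with no UMI of the strong-response set were 95.3% and 95.8% of thinned cells in mCherry, and 91% and 92% in Hevin. They were 95.3% to 96.9% in the microglia gate, 84.4% to 87.5% in the border-macrophage gate and 82.8% to 89% in the Apoe-high gate. At this depth, a cell without a UMI of the set may still express it. Of the difference of 2.20 UMIs per cell, 76.9% lay in cells with no UMI of the strong-response set, 16.9% in cells with 1 or 2 and 6.17% in high-responding cells. Of the 2.12 that came from the 27 genes outside that set, 79.8% lay in cells with no UMI of the set and 4.57% in high-responding cells. Within each of 3 gates the difference for the 37 genes was smaller. It was 0.381 UMIs per cell in the microglia gate, of which 87.3% lay in cells with none and -0.703% in high-responding cells, and 0.712 in the border-macrophage gate, of which 66.9% and 5.52% did. In the Apoe-high gate it was 0.185, the sum of 0.727 in cells with none, -0.0443 in cells with 1 or 2 and -0.498 in high-responding cells.

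**Figure D4:**
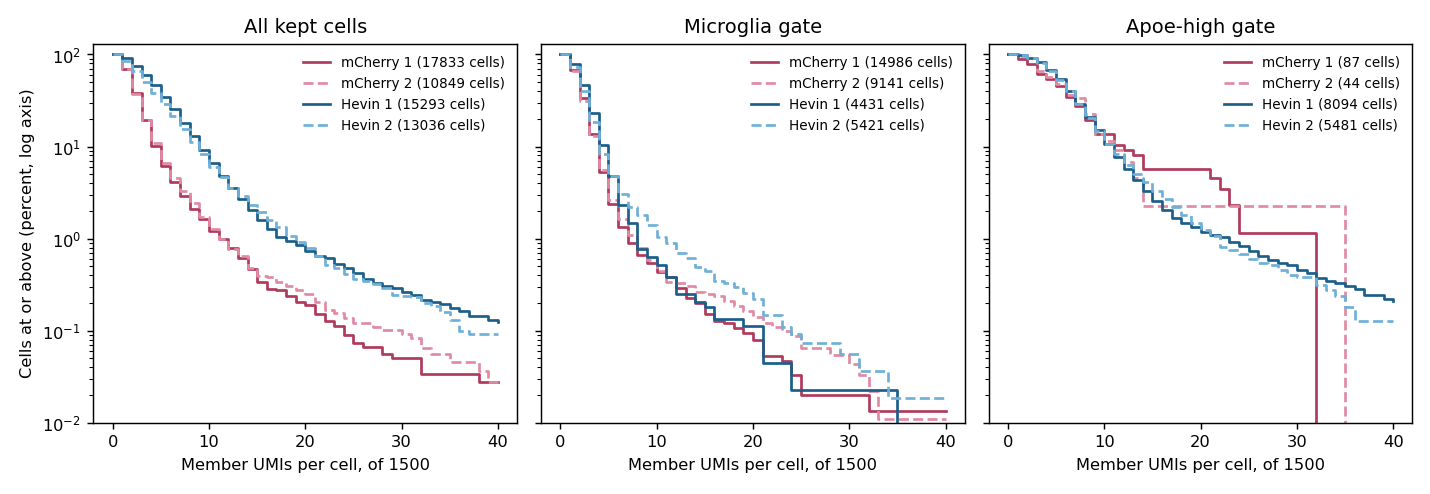
Percent of cells (log axis) with at least the given number of UMIs of the 37 genes after thinning to 1500 UMIs, for all kept cells and for the microglia and Apoe-high gates, with 1 line per library. Over all cells the medians are 3 in both Hevin libraries and 1 in both mCherry libraries, and the highest single cells are at 70 and 55 in mCherry and at 65 and 76 in Hevin, while inside the microglia gate the means are 1.26 to 1.71 UMIs per cell, and the mCherry lines of the Apoe-high gate (87 and 44 cells) end in single cells.

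Cells were also chosen by the strong-response set alone. In cells with no UMI of that set, 21 of the other 27 genes were higher in Hevin (edgeR, 6.34% of all 18779 genes tested), with a median log2 fold change of 0.78, and the count was 14 without mCherry replicate 1 and 16 without replicate 2. Bst2 rose by 2.39 ± 0.15, Mndal by 2.31 ± 0.16 and Ifi204 by 2.13 ± 0.10 in these cells. In such cells of the microglia gate alone, none of 26 tested passed (0.0119% of all genes tested did), 16 were higher at an unadjusted p under 0.05, against 3.36% of all genes tested, and 6 passed without Hevin replicate 2. DESeq2 was not run on these cells.

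How the transcripts were spread over cells differed from gene to gene. For each gene, the share of its thinned UMIs that lay in high-responding cells was computed, leaving that gene out of the set that chose the cells. Cxcl10 was the most concentrated, with 67.5% and 81.6% of its UMIs in such cells in mCherry and 73.0% and 76.6% in Hevin. Rsad2, which makes the antiviral nucleotide ddhCTP, had 40.4%, 39.0%, 43.9% and 43.2%, below Ifit1 in mCherry replicate 2 (43.4%) and Ifit3b in Hevin replicate 1 (44.2%). Isg15 had 11.9% and 17.9% in mCherry and 18.5% and 19% in Hevin. Bst2 had 2.99% and 3.05% against 2.26% and 2.68%, Mndal 4.56% and 7.84% against 5.48% and 6.18%, and Irf9 0.821% and 2.13% against 2.07% and 1.39%. In all 4 libraries Cxcl10 was above Rsad2, Rsad2 above Isg15 and Isg15 above Mndal and Bst2. These shares rest on different sets of cells, as leaving out a gene of the strong-response set made the set of cells smaller. In mCherry replicate 1, 0.185% of cells counted as high-responding for Isg15, 0.353% for Rsad2, 0.387% for Cxcl10 and 0.393% for Mndal and Bst2. In Hevin replicate 1 these were 0.562%, 0.883%, 0.870% and 0.915%.

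**Figure D5:**
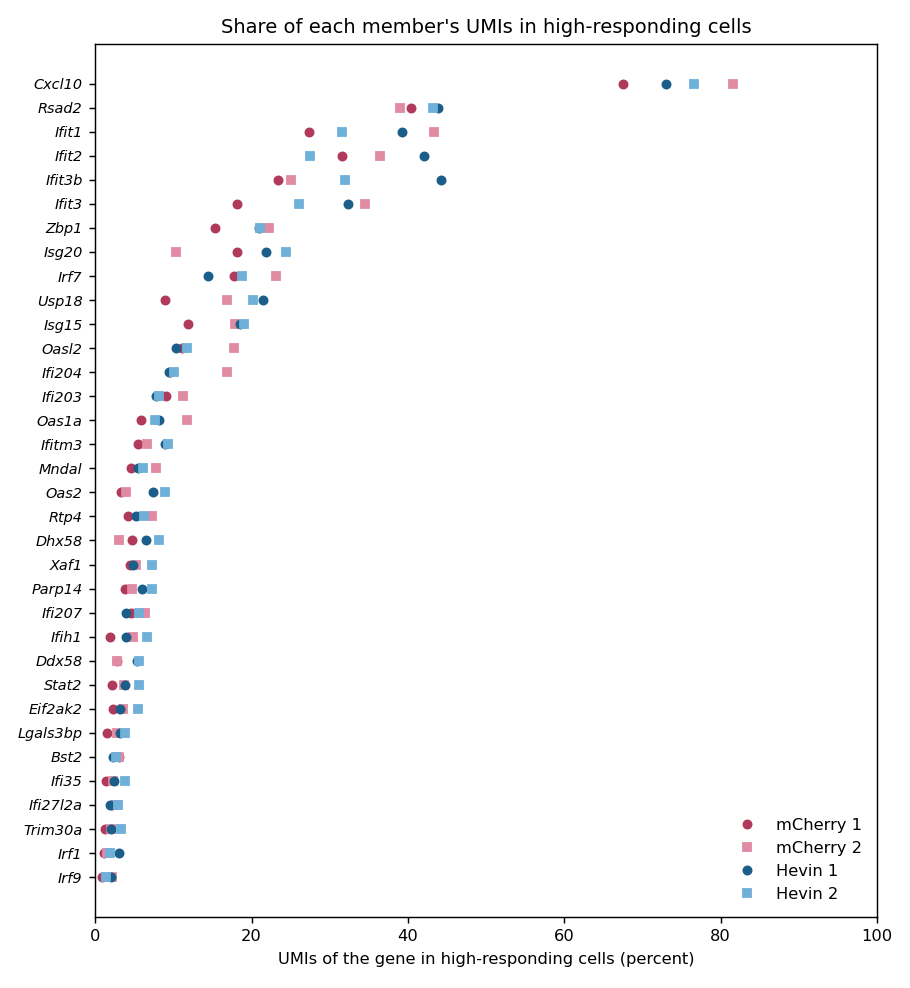
Share of each gene's UMIs, in percent, that lay in the high-responding cells of each library, for the 34 genes with at least 20 thinned UMIs in every library. Cxcl10, Rsad2 and the IFIT genes are at the top, and Bst2, Trim30a, Irf1 and Irf9 are under 4% in all 4 libraries. Each gene of the strong-response set was left out when its own cells were chosen, so the set of cells differs between these genes.

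The share of cells with a UMI, which follows a gene's mean level, was taken at the same thinned depth. Bst2 was seen in 25.6% and 25.6% of thinned cells in mCherry and in 68.1% and 58.2% in Hevin, and inside the Apoe-high gate in 62.1% and 77.3% against 89.4% and 88.1%. In the astrocyte gate it was seen in 12.9%, 11.4%, 29.1% and 23.1% of cells at the same thinned depth. Mndal was seen in 3.31% and 2.72% of cells in mCherry and in 16.9% and 12.9% in Hevin. Cxcl10 was seen in 0.264% and 0.221% against 0.778% and 0.407%.

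The other genes of the pathway were taken from lists that are not part of the 37. The interferons themselves were scarcely detected: none of the 8 type I ligand genes reached the level for testing, and they summed to 0.133 and 0.161 CPM in mCherry and to 0.109 and 0.209 in Hevin. Ifnb1 had 1 and 1 UMIs in the mCherry libraries, against 2 and 4 in the Hevin libraries, and Ifnz was at 0.118 and 0.141 against 0.0723 and 0.114 CPM. Ifng, Ifnl2 and Ifnl3 had none in any library. Of the 4 receptor and kinase genes, 2 were higher over all cells, where 6.85% of all genes tested were. The receptor chain Ifnar1 was at 51.9 and 54.1 against 90.9 and 92.0 (0.90 ± 0.07) and Ifnar2 at 158 and 157 against 221 and 207 (0.56 ± 0.08). Jak1 was at 159 and 164 against 132 and 143 and did not pass. Ifngr2, the accessory chain of the interferon gamma receptor, was the 1 of 3 genes for that receptor that passed (0.27 ± 0.06), and Ifngr1, its ligand-binding chain, was at 645 and 666 against 521 and 601.

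Of 13 sensors and factors upstream of interferon that were tested, none was higher and 1 was lower. Among all 19119 genes tested, 6.85% were higher and 822 genes were lower. Sting1, the adaptor for cytosolic DNA, was the lower one of the 13, at 255 and 232 against 157 and 170 (-0.46 ± 0.08, adjusted p = 0.0160). Irf8 was at 324 and 325 against 314 and 307, and Tlr3, the endosomal sensor of double-stranded RNA, at 30.6 and 29.1 against 16.2 and 22.4 (adjusted p = 0.0677). Of 8 negative regulators tested, 3 were higher, against 6.85% of all genes tested: Nlrc5 (1.52 ± 0.15), Samhd1 (0.55 ± 0.08) and Adar (0.28 ± 0.07). Among 43 further interferon targets, 23 were higher, against 6.85% of all genes tested, and none lower, with a median of 0.43. Ccl12, a chemokine for monocytes, was at 213 and 217 against 818 and 684 (1.92 ± 0.12), Ifi213, another PYHIN gene, at 4.56 and 4.98 against 17.7 and 18.2 (2.03 ± 0.11), and Slfn5 at 27.8 and 26.0 against 57.2 and 58.6 (1.22 ± 0.07). Ly6e, the most abundant of them, was at 1229 and 1211 against 1252 and 1340 and did not pass. Of 11 targets more typical of interferon gamma, 2 were higher, against 6.85% of all genes tested: Gbp8 (0.46 ± 0.10) and the sparse Cxcl9 (2.99 ± 0.68). Gbp7 was at 93.1 and 93.9 against 107 and 92.1, and Irgm2 at 46.3 and 45.9 against 36.2 and 40.1. No gene of these lists passed in the microglia gate, where no gene at all did. Between the gates of the Hevin libraries, 36 of 42 further targets tested were higher in the Apoe-high cells, against 17.9% of all genes tested, and none was lower.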

How the data were processed

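Per the labels' protocols, each library was made with the PIPseq v4.0PLUS kit, and the submitters' processing notes name the genome build mm10. The deposited matrices, 1 per library, hold counts of UMIs for each gene and barcode as the authors left them, not normalized. The aligner, the annotation, the rule for calling barcodes cells and the use of strand were not given in the sources used here, and whether doublets were removed is not stated. Cells with at least 500 UMIs, 300 genes and at most 10% mitochondrial UMIs were kept. The lowest barcodes already held 965 to 2993 UMIs. No doublet caller was run. Cells that met 2 lineage gates were left out of both, and a run without the 5% of cells with most UMIs was an alternative. Results for 2 list genes are not reported here. Ms4a7 was listed for the Apoe-high gate but not used in it.

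Counts were summed per library, or per library and gate, and tested with edgeR 4.0.16 (R 4.3.3, limma 3.58.1): TMM scaling, filterByExpr, quasi-likelihood test, Benjamini-Hochberg adjustment over all genes tested. DESeq2 1.42.0 was an alternative. On simulated counts the test recovered 99% of 2-fold and 100% of 4-fold changes over all cells (18892 genes), and 100% of both in the microglia gate (16647 genes). The simulation set a fixed spread between libraries and changed only well-counted genes, so it does not show which changes the test misses in the measured counts. In the measured microglia gate the 4 PYHIN genes, 2.91-fold to 4.26-fold higher, were not called. Levels are CPM of the cells named, without TMM. Python 3.11.15 with numpy 2.4.6, pandas 2.3.3, scipy 1.17.1 and matplotlib 3.10.9 did the rest. Gene positions are from GENCODE on GRCm38, and promoter sequences from RefSeq.

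The genes, the lists and the tests were chosen with earlier results of these data known. Values in every library are given for the 16 genes of highest mean level over all cells, and for the 4 of largest and the 4 of smallest fold change. Pathway lists name the 2 genes of highest level and the 2 of smallest p. Genes named beyond these were chosen after their values were seen. The gate markers were fixed earlier than the gate bounds. Replicates of a group differed by more than sampling noise (chi-square per gene 22.5 in mCherry over 19271 genes and 27.9 in Hevin over 18831).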

Additional observations from a re-analysis of the deposited data

Results flagged for a closer look

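With 2 libraries per group, no library could be tested as an outlier within its group. In 6 genes the Hevin effect differed between the border-macrophage and microglia gates by the interaction test of edgeR (adjusted p under 0.05, 0.498% of the 15276 genes tested were lower), each with a smaller log2 effect in border macrophages: Mndal by -1.81, Ifi207 by -1.50, Ifi203 by -1.49, Ifi204 by -1.34, Ifi27l2a by -0.53 and Bst2 by -0.44. In CPM the order was the other way round in all 6. The Hevin increase was 31.8 in border macrophages and 14.3 in microglia for Mndal, 19.7 and 8.91 for Ifi207, 38.4 and 6.43 for Ifi203, 11.5 and 7.69 for Ifi204, 23.0 and 13.3 for Ifi27l2a, and 171 and 128 for Bst2. Mndal and Ifi204 kept their call without any 1 library. Ifi207 lost it without mCherry replicate 2, Ifi203 without either mCherry library, and Bst2 and Ifi27l2a without Hevin replicate 1 or either mCherry library, so that 2 to 7 genes passed when 1 library was left out.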

How the results depend on the processing

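Over all cells, 23 to 35 genes were higher under every setting that kept the same cells or filtered them on UMIs or mitochondrial share (23 of 26 tested at a mean of at least 10 CPM, 28 to 31 of 37 with 1 library left out), but 10 outside the Apoe-high gate and 7 outside the Apoe-high and border-macrophage gates, cells left out after the data had been seen. Irf1 then turned to -0.02 and -0.03 (log2). In the microglia gate, against 0 in the main test, 6 were called by DESeq2, 10 with no filter on low counts, 1 at a mean of at least 10 CPM and 1 with no bound on Apoe, and 0 to 7 with 1 library left out. A stricter bound on the microglial genes gave 0 calls of 28 tested and lowered the median log2 fold change from 0.48 to 0.24. In border macrophages 2 were called with no filter, and 0 to 3 with 1 library left out. With 1 library left out, 0 to 4 were called lower in the Apoe-high gate, 0 to 4 higher in endothelial cells, 16 to 28 higher in Apoe-high than in microglia-gated cells of mCherry, 2 to 5 higher and 9 to 15 lower in Apoe-high cells than in border macrophages, 2 to 7 in the difference between gates, and 0 to 6 in microglia with no strong-response UMI. The replicate numbers of the labels are not stated to pair libraries, and only 2 pairs exist (correlation of their differences 0.566 over 8880 genes). With the number as a replicate block, 16 genes were called in the microglia gate, 14 in its cells without a strong-response UMI, 1 in border macrophages and 35 over all cells. The Hevin minus mCherry difference in high-responding cells, 0.525 percentage points, was 1.05 at 2 UMIs, 0.264 at 5, 0.382 thinned to 1000 and 1.08 not thinned, and -0.00319 in microglia became 0.0924 thinned to 1000. The part of the summed difference that went with gate shares was 82.6% to 88.2% with 1 library left out. Scaling to total counts moved the median of all genes by -0.11 over all cells, where 29 were called. The cause of these differences was not tested. The gates of mCherry Apoe-high cells and astrocytes, with 26 to 93 cells per library, limit what could be seen there.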
